A study of Homo sapiens with 12 samples.

Results

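Iron-sulfur clusters and heme are the principal iron cofactors of human cells, and 38 genes that build them were followed here among the 58735 genes of a read count table. The genes were taken by symbol through their Ensembl identifiers, and all 38 were found in the table. FAM96A, FAM96B and NARFL are older names of CIAO2A, CIAO2B and CIAO3. They cover 4 steps, namely 9 genes of the mitochondrial core machinery, 8 late mitochondrial factors, 10 genes of the cytosolic assembly pathway and 11 genes of heme synthesis and its transport. In all 37 of the 38 passed the filter on low counts, which kept 16133 genes. The exception was FDX2, with 73 counts over all libraries.

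Messenger RNA had been sequenced from KP4 and MiaPaca2, established cell lines that the labels describe as pancreatic ductal adenocarcinoma cells. Each line received the solvent DMSO or 100 nM trametinib for 48 h in DMEM with serum, antibiotics and HEPES. Trametinib blocks MEK1 and MEK2, which activate ERK. This made 4 groups of 3 libraries. Nothing in the labels says that the 3 were grown separately, and the p-values then reflect only library-to-library spread, which may be technical. The series was titled as a study of adaptation to RAS-MAPK inhibition that depends on iron, and its comparison of treated with untreated cells is used here to ask how the genes of both cofactors behaved.

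In mitochondria, the desulfurase NFS1 takes sulfur from cysteine and ISCU holds the growing cluster, while ferredoxin and its reductase pass electrons to it. Chaperones then release the cluster to carriers that serve the respiratory chain and lipoic acid synthesis, and a separate set of cytosolic proteins loads clusters onto DNA polymerases, helicases and other enzymes outside mitochondria. Heme is made by a chain of enzymes that starts with ALAS1 in mitochondria, continues in the cytosol and ends in mitochondria, where FECH inserts iron into the ring. ALAS1 is the rate-limiting enzyme outside red cell precursors, and FECH itself carries an iron-sulfur cluster.

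Total counts per library ran from 20293688 to 28018129, and the 38 genes held 0.2251% to 0.276% of them. Mitochondrially encoded RNA made up 2.249% to 3.32% of counts in MiaPaca2 DMSO and 4.024% to 4.25% in MiaPaca2 trametinib, against 4.161% to 4.375% and 5.484% to 5.745% in KP4 DMSO and KP4 trametinib, and the part of this share in the results was not tested. The libraries of MiaPaca2 DMSO stood apart from each other, where pairs gave chi-square values of 5.758 to 10.45 for each degree of freedom, against 1.831 to 2.508 in the other groups, and replicate 2 differed most. The summed level of 4 transcripts that report ERK activity fell from 558.2 to 562.1 CPM (counts scaled to library size with TMM factors) to 5.867 to 6.503 in KP4, and from 435.6 to 480.5 to 5.628 to 8.368 in MiaPaca2. Of 8 ductal markers 5 exceeded 1 CPM in some group and CFTR was at 0 counts, so the ductal label was borne out only in part. The summed ductal markers moved from 361.1 to 374.8 CPM to 220.4 to 229.1 in KP4 and from 1829 to 2201 to 735.8 to 752.5 in MiaPaca2, and their part in the results was not tested. All 4 mesenchymal markers were present. Their sum moved from 3819 to 3843 CPM to 3313 to 3322 in KP4 and from 5886 to 6553 to 5067 to 5163 in MiaPaca2. The part of this shift in the results was not tested. Erythroid markers, which would bring their own heme synthesis, summed to at most 0.4444 CPM, and ALAS2, HBA2 and HBB had no counts. The summed fibroblast markers, 2 of 4 over 1 CPM, rose from 72.37 to 122.6 CPM to 217.1 to 229.1 in MiaPaca2. In KP4 they rose from 6.734 to 8.158 CPM to 10.38 to 10.79, and their part in the results was not tested.

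The promoters of 35 of the 38 genes were in the RefSeq table (build GRCh38.p14), as windows of 300 bases from 250 before to 50 after each start. In these windows the word GCGCATGC, known as a nuclear respiratory factor motif and searched on both strands, occurred in 5 of 35 genes (14.3%) against 3.68% of 27305 genes. It stood in ALAS1, TMEM14C, CIAO3, MMS19 and FDX2. The stretches of 30 bases around it are shown for the 4 genes that were tested, because 2 of them belong to heme synthesis and 2 to the cytosolic pathway. Capitals mark the motif, with its overlapping copy on the other strand where there is one.
ALAS1, chr3:52198093-52198122, plus strand: cagcgcccaagGCGCATGCGCagcggtcac
TMEM14C, chr6:10723013-10723042, plus strand: ctgaatgcaggGCGCATGCtgctacttggc
CIAO3, chr16:741067-741096, minus strand: cgggacgaggtGCGCATGCgtcctgggggc
MMS19, chr10:97498433-97498462, minus strand: tggctcgggagGCGCATGCGCggagagccc

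As described further on, ALAS1 and TMEM14C rose in both lines, MMS19 fell in both and CIAO3 did not pass the test, so the word was present in genes of either direction. The E-box CACGTG was found in 7 of 35 genes (20%) against 8.77% of all genes. These 7 were HSPA9, MMS19, SLC25A38, BOLA1, TMEM14C, ABCB6 and FDX2. HSPA9 and MMS19 fell in both lines, TMEM14C rose in both, ABCB6 rose and BOLA1 fell in KP4, and FDX2 was not tested. For SLC25A38 the fitted change had opposite signs in the 2 lines, and the stretch that holds the word is shown beside that of HSPA9.
HSPA9, chr5:138575403-138575432, minus strand: cgcccctcacccCACGTGgttggaggtttc
SLC25A38, chr3:39383314-39383343, plus strand: tcagaacaccctCACGTGacaagcgtccca

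The scaffold gene ISCU held the palindrome TGACGTCA, a cyclic AMP response element, as did NUBPL, which makes 2 of 35 genes (5.71%) against 2.25% of all genes.
ISCU, chr12:108562515-108562544, plus strand: caaagcttcggTGACGTCAgagaggcgcgc
Other words were GGGCGG in 28 genes (80% against 48.3%), CCAAT in 16 (45.7% against 39.7%), TGACNNNGC in 3 (8.57% against 16.1%) and TGANTCA in 1 (2.86% against 9.37%). These matches describe the letters of the windows and nothing more.

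After trametinib more of the genes fell than rose, and the steps were unlike each other. Over all 37 tested genes 8 rose and 15 fell in KP4, a called share of 62.2% where 48.1% of all genes were called, 23.9% higher and 24.1% lower (edgeR's quasi-likelihood test, adjusted p under 0.05). In MiaPaca2 8 rose and 18 fell, a called share of 70.3% against 64% of all genes, 34.4% higher and 29.7% lower. By step, 7 of 11 heme genes rose and 1 fell in KP4, while 8 of 10 cytosolic cluster genes fell and 0 rose. Of 16 tested mitochondrial cluster genes in that line, 6 fell and 1 rose. The called shares in KP4 were 72.7% for heme, 80% for cytosolic and 43.8% for mitochondrial genes. The mitochondrial share was below the 48.1% of all genes. In MiaPaca2, 5 heme genes rose and 2 fell, 8 cytosolic genes fell and 0 rose, and 8 mitochondrial genes fell and 3 rose. The called shares there were 63.6% for heme, 80% for cytosolic and 68.8% for mitochondrial genes. The heme share was near the 64% of all genes. In bulk samples such as these, fewer cells of a type and less RNA per cell cannot be told apart.

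The median log2 fold change of the heme genes was 0.33 in KP4 and 0.24 in MiaPaca2, that of the cytosolic genes −0.21 and −0.27, and that of the mitochondrial genes −0.14 in both. Over all genes the median was 0.00 in KP4 and 0.05 in MiaPaca2. In 29 of the 37 tested genes (78.4%) the 3 treated libraries of KP4 did not overlap the 3 control libraries, against 60.1% of all genes tested. In MiaPaca2 this held for 28 (75.7%) against 64.4%. The same direction was called in both lines for 5 genes that rose, FDXR, ALAS1, ALAD, UROS and TMEM14C, which are 62.5% of the 8 higher in each line. For 13 genes that fell the direction was shared, 86.7% of those lower in KP4 and 72.2% of those lower in MiaPaca2. Over all genes these shares were 79.1% and 55.1% for rises and 70.2% and 57% for falls. SLC25A38 was called in opposite directions, and 7 genes, ISCU, ISCA1, ISCA2, NFU1, CIAO2A, CIAO3 and PPOX, were called in neither line.

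**Figure D1:**
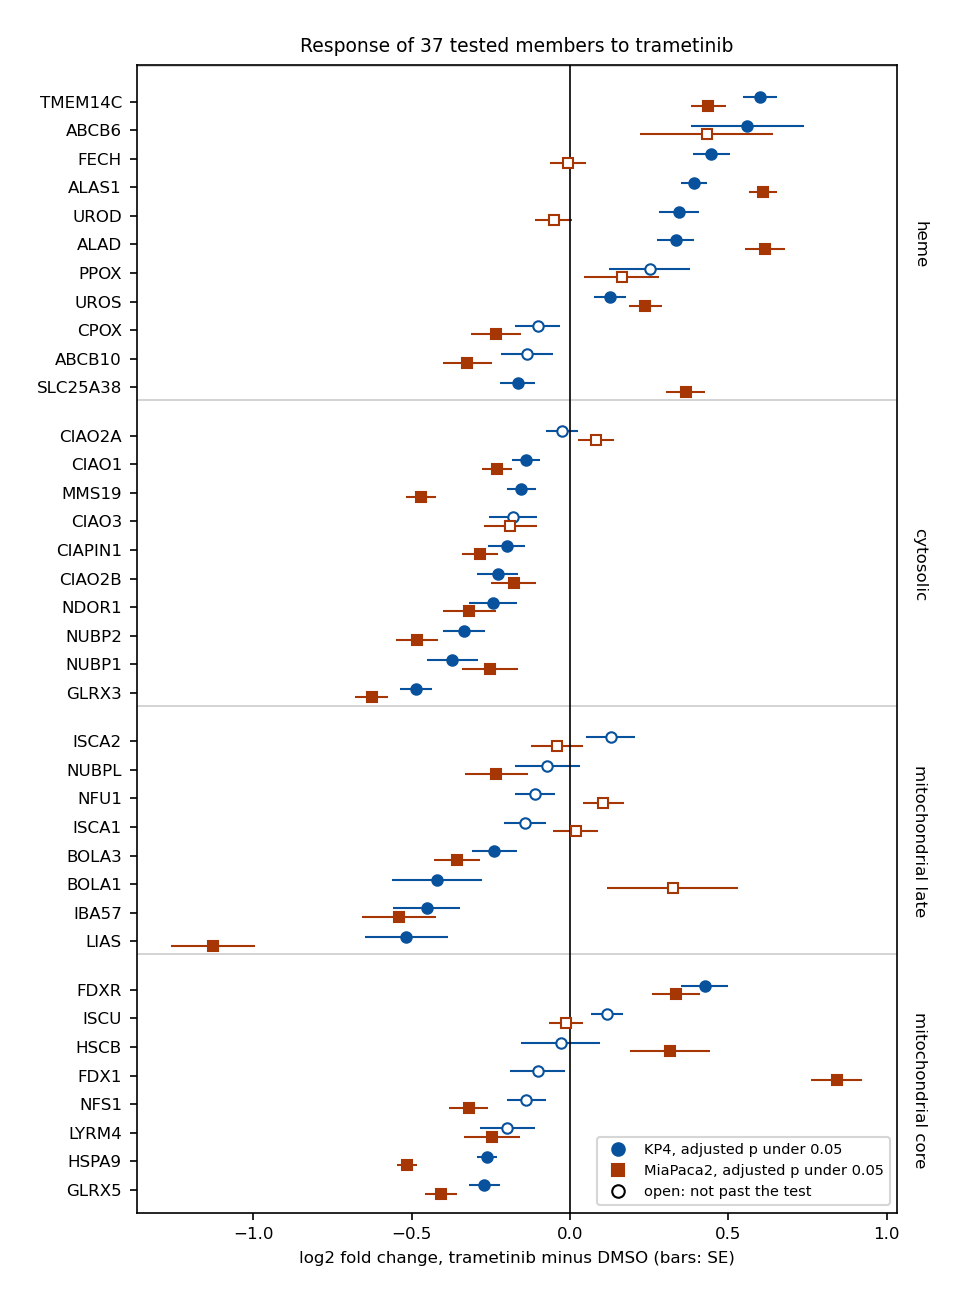
Log2 fold change (trametinib minus DMSO, x axis) of the 37 tested genes, grouped by step, in KP4 (circles) and MiaPaca2 (squares), with bars for the standard error, filled symbols where the adjusted p was under 0.05 and open symbols where it was not. Most filled heme symbols lie to the right of 0 and all filled cytosolic symbols to the left, and FDX1 in MiaPaca2 reaches 0.84.

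Levels per transcript length showed the same contrast between steps. Counts were divided by the median length of each gene's transcripts and scaled to TPM, a level per length, and summed within each step. For KP4 the heme genes summed to 576.8 ± 8.531 TPM under DMSO (mean ± SD, n = 3) and 715 ± 8.312 under trametinib. In MiaPaca2 the heme sum was 585.4 ± 14.39 and 706.9 ± 10.22, so in both lines every treated library lay above every control.

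The cytosolic sum was 928.7 ± 15.42 TPM under DMSO and 810.5 ± 10.37 under trametinib in KP4, and 845 ± 24.7 and 705.8 ± 8.044 in MiaPaca2. For the mitochondrial core the sum was 936.7 ± 15.9 and 835.7 ± 1.572 in KP4, and 899.7 ± 27.23 and 717.2 ± 4.081 in MiaPaca2. Much of the core sum was HSPA9, the mitochondrial chaperone mortalin, which had the highest level per length of the 38 genes at 587.5 ± 14.61 TPM in KP4 DMSO. Without it the core summed to 349.1 and 341.3 TPM in KP4 and 341.3 and 321.9 in MiaPaca2. The late factors summed to 345.2 ± 9.528 and 313.5 ± 2.872 TPM in KP4, and 347 ± 11.55 and 311.5 ± 2.606 in MiaPaca2. No test was made on these sums.

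**Figure D2:**
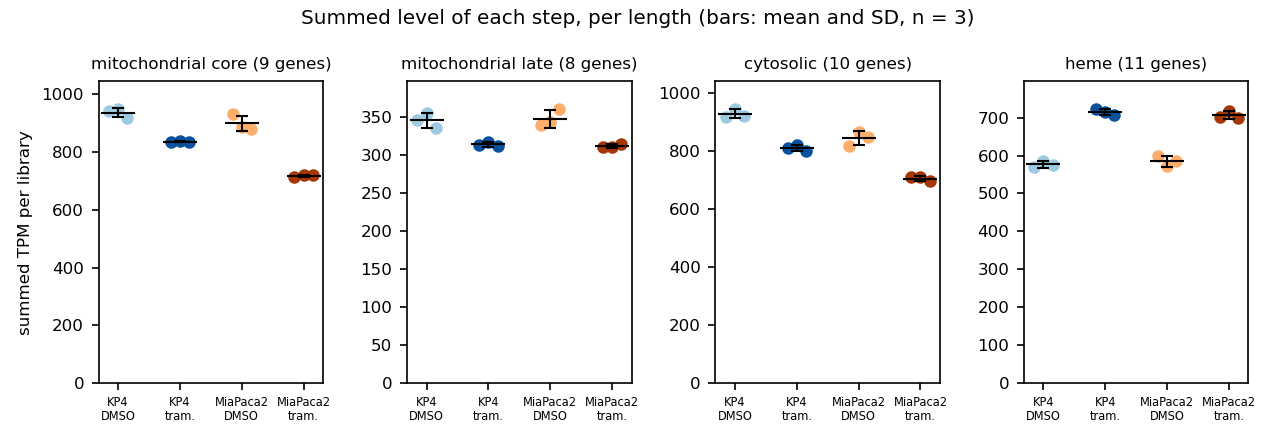
Summed TPM of the genes of each step (y axis, from 0, with its own scale in each panel) in every library of the 4 groups, as points with the mean and SD (n = 3). The heme sum is higher in all 6 trametinib libraries than in the 6 DMSO libraries, and the other 3 sums are lower within each line.

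The scaffold of the mitochondrial core was called in neither line. ISCU (ENSG00000136003, chromosome 12, 108562582 to 108569384, GRCh38), on which the cluster is built, stood at 57.71, 55.13 and 58.35 CPM in KP4 DMSO and 61.31, 63.11 and 61.38 in KP4 trametinib. Its libraries did not overlap in KP4, yet the log2 fold change of 0.12 ± 0.05 (SE) did not pass the test (edgeR adjusted p = 0.0547). In MiaPaca2 the values were 49.82, 49.71 and 51.19 CPM in DMSO and 50.28, 50.06 and 49.03 in trametinib, with a change of −0.01 ± 0.05 (edgeR adjusted p = 0.849). The KP4 change passed in 11 of 22 alternatives, with RLE scaling at an adjusted p of 0.0306 and without KP4 trametinib replicate 1 at 0.0442. It also passed without MiaPaca2 DMSO replicate 1, 2 or 3, at 0.0369, 0.0398 and 0.0457.

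NFS1, the cysteine desulfurase (ENSG00000244005, chromosome 20, 35668055 to 35699359), stood at 36.12, 37.8 and 35.72 CPM in KP4 DMSO and 31.16, 33.48 and 35.05 in KP4 trametinib (−0.14 ± 0.06, edgeR adjusted p = 0.0664). In MiaPaca2 it fell from 44.54, 43.79 and 43.56 CPM to 34.73, 35.25 and 35.78 (−0.32 ± 0.06, edgeR adjusted p = 6.647e-05), and no treated library reached a control. The 2 responses did not differ by the test (0.18, edgeR adjusted p = 0.109), though without KP4 trametinib replicate 1 the difference was 0.29 with an adjusted p of 0.017. The KP4 fall of NFS1 passed without KP4 trametinib replicate 3 (adjusted p = 0.0409), MiaPaca2 DMSO replicate 1 (0.0484) and MiaPaca2 DMSO replicate 2 (0.0483). LYRM4, the small partner that stabilises NFS1, was at −0.20 in KP4 (edgeR adjusted p = 0.0613) and fell by 0.25 in MiaPaca2 (0.0172). That MiaPaca2 call was lost without MiaPaca2 DMSO replicate 1 (0.051) or MiaPaca2 trametinib replicates 1 (0.124) or 3 (0.0674), and LYRM4 passed in KP4 without MiaPaca2 DMSO replicate 2 (0.0368) or MiaPaca2 trametinib replicate 2 (0.0418).

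FDXR was the 1 core gene called higher in KP4, and FDXR, FDX1 and HSCB were called higher in MiaPaca2. FDXR, the reductase that hands electrons from NADPH to ferredoxin (ENSG00000161513, chromosome 17, 74862497 to 74873031), rose in KP4 from 21.39, 22.03 and 23.45 CPM to 28.74, 29.15 and 32.01 (0.42 ± 0.07, edgeR adjusted p = 3.171e-05). In MiaPaca2 it rose from 22.73, 23.81 and 26.5 CPM to 29.28, 31.55 and 31.33 (0.34 ± 0.08, edgeR adjusted p = 0.000413). In both lines the lowest treated library was above the highest control.

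FDX1, a mitochondrial ferredoxin (ENSG00000137714, chromosome 11, 110429883 to 110464881), split the lines. It stood at 16.32, 16.32 and 15.61 CPM in KP4 DMSO and 15.74, 14.98 and 14.17 in KP4 trametinib, groups that overlapped. In MiaPaca2 it rose from 17.03, 14.99 and 16.88 CPM to 29.12, 31.3 and 27.5 (0.84 ± 0.08, edgeR adjusted p = 1.091e-09). The response was −0.10 ± 0.09 in KP4 (edgeR adjusted p = 0.355), and the difference between the responses was −0.94 ± 0.12 (5.915e-07), past the test in all 21 alternatives in which it was fitted. In DMSO the FDX1 levels of the lines overlapped, with a difference of −0.02 ± 0.09 (edgeR adjusted p = 0.85). FDX2, the ferredoxin given to cluster assembly itself, had between 1 and 10 counts per library, and 70.9% of its exon bases lie in a read-through gene on the same strand, so its level is uncertain and was not tested.

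HSPA9, the chaperone that helps release the cluster from ISCU (ENSG00000113013, chromosome 5, 138553756 to 138575724), fell in KP4 from 1118, 1127 and 1075 CPM to 915, 923.6 and 930 (−0.26 ± 0.03, edgeR adjusted p = 1.242e-07). In MiaPaca2 it fell from 1101, 1057 and 1049 CPM to 743.8, 748.1 and 752.8 (−0.51 ± 0.03, edgeR adjusted p = 1.743e-13). The treated libraries were close to each other in both lines, and the fall was 0.25 larger in MiaPaca2 (edgeR adjusted p = 6.682e-05). Its pseudogene HSPA9P1 held 269 counts against 290186 of the gene. GLRX5, the glutaredoxin that receives the cluster, fell by 0.27 in KP4, from 89.1 ± 3.74 to 73.8 ± 2.35 CPM, and by 0.41 in MiaPaca2, from 86.6 ± 2.56 to 65.4 ± 0.672 (edgeR adjusted p = 4.273e-05 and 9.706e-08), and 13.7% of its exon bases face the antisense gene SNHG10. HSCB, the cochaperone of HSPA9, was at −0.03 in KP4 and rose by 0.32 in MiaPaca2 (edgeR adjusted p = 0.0297), where the call was lost in 7 of 22 alternatives. Among these were the fits without MiaPaca2 DMSO replicate 1 (0.0527) or 2 (0.0599), without MiaPaca2 trametinib replicate 1 (0.101) or 3 (0.12) and without KP4 trametinib replicate 1 (0.0537), and 20.6% of HSCB's exon bases overlap CHEK2 on the other strand.

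Of the 8 late mitochondrial factors 0 rose in either line and 4 fell in each, where 24.1% of all genes fell in KP4 and 29.7% in MiaPaca2. LIAS, the lipoic acid synthase that itself depends on clusters (ENSG00000121897, chromosome 4, 39458587 to 39485109), fell in KP4 from 8.634, 9.479 and 8.877 CPM to 6.851, 5.904 and 6.082 (−0.52 ± 0.13, edgeR adjusted p = 0.00183). In MiaPaca2 it fell from 12.21, 12.52 and 12.85 CPM to 4.955, 7.554 and 4.977 (−1.13 ± 0.13, edgeR adjusted p = 3.871e-08), the largest fall of the 37 tested genes. Of its 3 treated MiaPaca2 libraries, replicate 2 was the highest and still below every control. The responses of LIAS differed by 0.61 (edgeR adjusted p = 0.0126), with an adjusted p of 0.0552 without MiaPaca2 trametinib replicate 1 and 0.0539 without replicate 3.

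IBA57, which works with ISCA1 and ISCA2 to make the larger clusters (ENSG00000181873, chromosome 1, 228165815 to 228182257), fell in KP4 from 17.07, 19.42 and 20.87 CPM to 13.32, 16.29 and 12.46 (−0.45 ± 0.11, edgeR adjusted p = 0.000909). For MiaPaca2 the fall was from 17.36, 18.74 and 17.51 CPM to 10.93, 14.66 and 11.63 (−0.54 ± 0.12, edgeR adjusted p = 0.000229). No treated library overlapped a control, although replicate 2 was the highest treated library in each line. Its partners ISCA1 and ISCA2 were not called, at −0.14 and 0.13 in KP4 and 0.02 and −0.04 in MiaPaca2.

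The BOLA proteins assist the delivery of clusters. BOLA1 (ENSG00000178096, chromosome 1, 149887890 to 149900798) fell in KP4 from 6.654, 5.866 and 6.371 CPM to 4.286, 4.783 and 5.081 (−0.42 ± 0.14, edgeR adjusted p = 0.0165). In MiaPaca2 it was lower throughout, at 1.856, 3.067 and 2.482 CPM in DMSO and 2.803, 3.012 and 3.427 in trametinib, groups that overlapped (0.32 ± 0.21, edgeR adjusted p = 0.174). That MiaPaca2 value was 0.15 without MiaPaca2 DMSO replicate 1 and 0.51 without replicate 2. The KP4 call was lost without KP4 DMSO replicate 1 (adjusted p = 0.0625) or KP4 trametinib replicate 1 (0.106). The responses of BOLA1 differed by −0.74 (edgeR adjusted p = 0.0218), which was lost without KP4 trametinib replicate 1 (0.0779), MiaPaca2 DMSO replicate 1 (0.0851) or MiaPaca2 trametinib replicate 3 (0.0761). BOLA3 fell by 0.24 in KP4 and 0.36 in MiaPaca2 (edgeR adjusted p = 0.00689 and 0.000129), and the KP4 call was lost without KP4 trametinib replicate 3 (0.0555).

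NUBPL, which brings clusters to respiratory complex I, was at −0.07 in KP4 and fell by 0.23 in MiaPaca2 (edgeR adjusted p = 0.0432), a call lost in 8 of 22 alternatives with an adjusted p of up to 0.273 without MiaPaca2 DMSO replicate 1. The call of NUBPL was also lost without KP4 DMSO replicate 1 (0.0507) or 3 (0.0506) and without MiaPaca2 trametinib replicate 1 (0.055), 2 (0.138) or 3 (0.068). NFU1, a late carrier, was at −0.11 in KP4 and 0.10 in MiaPaca2 and was called in neither. Its responses differed by −0.21 without passing the test (edgeR adjusted p = 0.0672), and passed without KP4 trametinib replicate 3 (0.0363) or MiaPaca2 DMSO replicate 3 (0.0428).

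**Figure D3:**
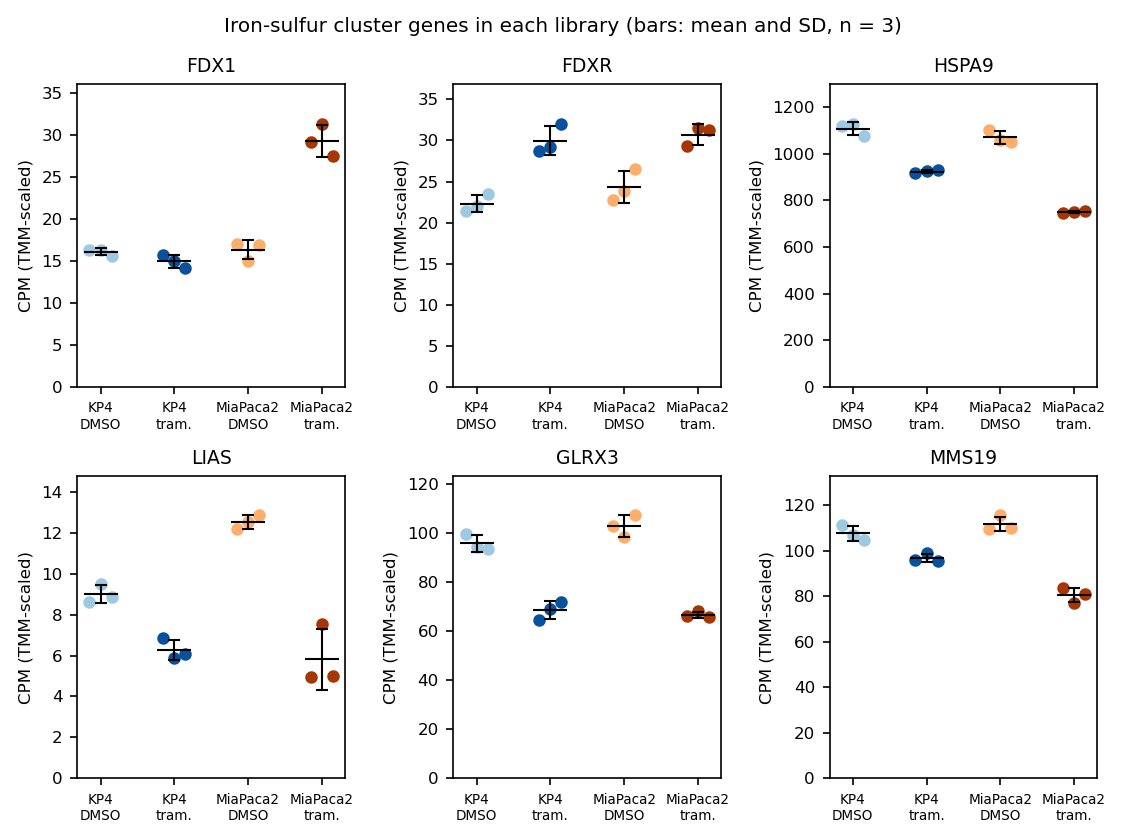
CPM (y axis, from 0) of 4 mitochondrial cluster genes and the cytosolic genes GLRX3 and MMS19 in each library of the 4 groups, with the mean and SD (n = 3). FDX1 stands apart only in MiaPaca2 trametinib, FDXR is higher after trametinib in both lines, and HSPA9, LIAS, GLRX3 and MMS19 are lower.

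In the cytosolic pathway 8 of 10 genes fell in each line, against 24.1% of all genes in KP4 and 29.7% in MiaPaca2, and CIAO2A and CIAO3 were called in neither. Without KP4 trametinib replicate 1 the count in KP4 was 6. GLRX3, a cytosolic glutaredoxin that carries clusters and iron (ENSG00000108010, chromosome 10, 130136399 to 130184521), fell in KP4 from 99.77, 94.21 and 93.53 CPM to 64.58, 68.94 and 71.84 (−0.49 ± 0.05, edgeR adjusted p = 1.319e-08). In MiaPaca2 it fell from 102.9, 98.27 and 107.2 CPM to 66.08, 68.09 and 65.72 (−0.63 ± 0.05, edgeR adjusted p = 7.608e-11). Between the lines the controls overlapped and so did the treated libraries, while the treatments were far apart.

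NUBP1 and NUBP2 form the scaffold on which cytosolic clusters are built. NUBP2 (ENSG00000095906, chromosome 16, 1782901 to 1789191) fell in KP4 from 56.8, 60.64 and 61.57 CPM to 46.94, 45.96 and 49.18 (−0.33 ± 0.07, edgeR adjusted p = 0.000134). Its fall in MiaPaca2 was from 62.2, 69.39 and 76.62 CPM to 48.54, 52.68 and 47.97 (−0.48 ± 0.07, edgeR adjusted p = 5.389e-07). The controls of MiaPaca2 were the most spread of the 4 groups. NUBP1 fell by 0.37 in KP4, from 22.4 ± 1.09 to 17.3 ± 1.022 CPM, and by 0.25 in MiaPaca2, from 18.1 ± 1.03 to 15.1 ± 0.971 (edgeR adjusted p = 0.000367 and 0.0156). The MiaPaca2 call of NUBP1 was lost without MiaPaca2 trametinib replicate 2 (0.0702), and 36.1% of its exon bases overlap TVP23A on the other strand, a gene with 31 counts in all.

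CIAPIN1 and NDOR1 pass electrons to the cytosolic scaffold, in the role that ferredoxin has in mitochondria. CIAPIN1 fell by 0.20 in KP4 and 0.28 in MiaPaca2 (edgeR adjusted p = 0.00565 and 9.79e-05). NDOR1 fell by 0.24 in KP4 and 0.32 in MiaPaca2 (edgeR adjusted p = 0.00987 and 0.0017), and the KP4 call was lost without KP4 trametinib replicate 3 (0.0827).

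CIAO1, CIAO2B and MMS19 make up the complex that hands clusters to target proteins, and CIAO3 links it to the scaffold. CIAO1 fell by 0.14 in KP4, from 123 ± 0.814 to 112 ± 0.375 CPM, and by 0.23 in MiaPaca2, from 111 ± 2.5 to 94.6 ± 5.85 (edgeR adjusted p = 0.013 and 0.000128). CIAO2B fell by 0.23 in KP4 and 0.18 in MiaPaca2 (edgeR adjusted p = 0.00511 and 0.0295). MMS19 fell by 0.15 in KP4, from 108 ± 3.23 to 96.9 ± 1.95 CPM, and by 0.47 in MiaPaca2, from 112 ± 3.23 to 80.6 ± 3.2 (edgeR adjusted p = 0.00707 and 2.501e-09). The fall of MMS19 was 0.32 larger in MiaPaca2 (edgeR adjusted p = 0.000415), and it was the 1 cytosolic gene whose responses differed. Without KP4 trametinib replicate 1 the KP4 falls of CIAO1 (adjusted p = 0.087) and MMS19 (0.0753) did not pass. CIAO2B was not called in MiaPaca2 without MiaPaca2 DMSO replicate 2 (0.13) or 3 (0.0816), without MiaPaca2 trametinib replicate 1 (0.17) or 3 (0.0576), or with library size alone (0.0561).

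CIAO3 lay just short of the threshold at −0.18 ± 0.08 in KP4 and −0.19 ± 0.08 in MiaPaca2 (edgeR adjusted p = 0.0558 and 0.0503), and 21.5% of its exon bases overlap HAGHL on the other strand. It passed in KP4 without KP4 DMSO replicate 1 (0.0328), KP4 trametinib replicate 2 (0.0185) or MiaPaca2 DMSO replicate 1 (0.042), 2 (0.0294) or 3 (0.0481). In MiaPaca2 it passed without KP4 trametinib replicate 1 (0.0218) or 2 (0.0438) or MiaPaca2 DMSO replicate 1 (0.0313) or 3 (0.0407).

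CIAO2A, which serves the iron regulatory protein ACO1 rather than the general targets (ENSG00000166797, chromosome 15, 64072559 to 64094018), behaved otherwise. Its level was 69.75, 69.5 and 68.58 CPM in KP4 DMSO and 66.02, 68.79 and 69.35 in KP4 trametinib, groups that overlapped (−0.03 ± 0.05, edgeR adjusted p = 0.718). In MiaPaca2 it was 48.17, 48.47 and 45.34 CPM in DMSO and 53.05, 48.48 and 48.71 in trametinib (0.08 ± 0.06, edgeR adjusted p = 0.211). The lines differed more than the treatments, by 0.55 in DMSO and 0.44 in trametinib (edgeR adjusted p = 1.915e-09 and 1.172e-07).

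Among the heme genes, the messenger RNA of the rate-limiting enzyme rose in both lines. ALAS1 (ENSG00000023330, chromosome 3, 52198086 to 52214327) rose in KP4 from 117.3, 117.1 and 117.8 CPM to 158.8, 152.3 and 150.8 (0.39 ± 0.04, edgeR adjusted p = 1.787e-08). In MiaPaca2 it rose from 82.2, 88.3 and 85.22 CPM to 130.1, 128.2 and 131.8 (0.61 ± 0.04, edgeR adjusted p = 4.624e-12). Every treated library was far above its controls, and the rise was larger in MiaPaca2 by 0.22 (edgeR adjusted p = 0.00609).

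ALAD, the next enzyme, which joins a pair of ALAS1 products into a pyrrole (ENSG00000148218, chromosome 9, 113386317 to 113401333), rose in KP4 from 48.4, 45.3 and 46.89 CPM to 61.06, 56.54 and 59.56 (0.33 ± 0.06, edgeR adjusted p = 3.011e-05). In MiaPaca2 it rose from 32.71, 32.8 and 35.63 CPM to 50.97, 55.1 and 48.99 (0.61 ± 0.06, edgeR adjusted p = 4.325e-09). The groups did not overlap in either line. The responses of ALAD differed by −0.28 (edgeR adjusted p = 0.0124), which became 0.0503 without KP4 trametinib replicate 1.

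UROS, which closes the ring, rose by 0.24 in MiaPaca2, from 73.2 ± 5.15 to 86.2 ± 0.848 CPM (edgeR adjusted p = 0.00027). In KP4 it rose by 0.13, from 80.8 ± 2.27 to 88.1 ± 1.04 CPM, close to the threshold (0.0403). The KP4 call of UROS was lost in 9 of 22 alternatives. Without KP4 DMSO replicate 1 or 3 its adjusted p was 0.123 and 0.138, without KP4 trametinib replicate 2 or 3 it was 0.0992 and 0.109, and without MiaPaca2 trametinib replicate 1, 2 or 3 it was 0.0506, 0.0504 and 0.0513. It was 0.1055 with no filter and 0.0558 with the replicate number as a block.

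UROD, the decarboxylase that follows in the cytosol (ENSG00000126088, chromosome 1, 45012147 to 45015575), rose in KP4 from 32.75, 34.11 and 35.37 CPM to 42.62, 44.24 and 42.98 (0.34 ± 0.06, edgeR adjusted p = 7.476e-05). In MiaPaca2 it was higher, at 76.43, 65.85 and 72.72 CPM in DMSO and 65.84, 69.91 and 71.88 in trametinib, groups that overlapped (−0.05 ± 0.06, edgeR adjusted p = 0.456). The responses differed by 0.39 (edgeR adjusted p = 0.000729). KP4 stayed below MiaPaca2, by 1.07 on the log2 scale in DMSO and by 0.68 in trametinib.

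CPOX and PPOX are oxidases that act on heme precursors as the chain returns to mitochondria. CPOX was at −0.10 in KP4 (edgeR adjusted p = 0.258) and fell by 0.23 in MiaPaca2, from 26 ± 2.45 to 22.2 ± 0.364 CPM (0.0107), with an adjusted p of 0.0587 without MiaPaca2 DMSO replicate 1. PPOX stood at 0.25 and 0.16 and was called in neither line, and 24.3% of its exon bases overlap the more highly counted B4GALT3 on the other strand.

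FECH, the ferrochelatase (ENSG00000066926, chromosome 18, 57548283 to 57586772), rose in KP4 from 43.53, 44.36 and 47.07 CPM to 58.78, 61.54 and 63.72 (0.45 ± 0.06, edgeR adjusted p = 5.013e-07). In MiaPaca2 it stood at 69.54, 61.59 and 69.14 CPM in DMSO and 67.79, 67.25 and 64.5 in trametinib (−0.01 ± 0.06, edgeR adjusted p = 0.94). The KP4 groups were well apart and the MiaPaca2 groups overlapped, and the responses differed by 0.45 (edgeR adjusted p = 8.977e-05). In DMSO the lines differed by −0.57 (4.619e-09), and in trametinib by −0.12, which did not pass the test (0.0834) but did without MiaPaca2 DMSO replicate 2 (0.0438).

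The carriers of heme precursors rose or fell singly. TMEM14C, which moves porphyrin precursors across the inner mitochondrial membrane (ENSG00000111843, chromosome 6, 10722915 to 10731129), rose in KP4 from 66.46, 70.47 and 63.03 CPM to 100.9, 101.6 and 99.99 (0.60 ± 0.05, edgeR adjusted p = 6.957e-10). For MiaPaca2 the rise was from 69.04, 64.23 and 65.86 CPM to 88.1, 96.77 and 85.22 (0.44 ± 0.06, edgeR adjusted p = 1.379e-07). It had the largest rise of the 37 genes in KP4, with no overlap in either line. The difference of its responses, 0.16, had an edgeR adjusted p of 0.107 and passed without KP4 trametinib replicate 1 (0.0466), MiaPaca2 DMSO replicate 2 (0.039) or MiaPaca2 trametinib replicate 2 (0.0373), and with RLE scaling (0.0372).

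SLC25A38, the carrier that brings glycine to ALAS1 (ENSG00000144659, chromosome 3, 39383324 to 39397351), went from 56.4, 57.96 and 57.09 CPM to 52.45, 49.44 and 51.07 in KP4 (−0.16 ± 0.06, edgeR adjusted p = 0.0163). In MiaPaca2 it rose from 33.04, 37.06 and 33.99 CPM to 44.07, 46.86 and 43.36 (0.37 ± 0.06, edgeR adjusted p = 1.209e-05). Treated and control libraries were apart in both lines, in opposite directions, and the responses differed by −0.53 (edgeR adjusted p = 1.467e-05). The fall of SLC25A38 in KP4 did not pass without KP4 DMSO replicate 2 (0.0567) or KP4 trametinib replicate 2 (0.0759), which left no heme gene called lower in that line.

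ABCB6, a porphyrin transporter (ENSG00000115657, chromosome 2, 219209766 to 219219017), rose in KP4 from 2.178, 2.331 and 2.434 CPM to 3.724, 3.064 and 3.449 (0.56 ± 0.18, edgeR adjusted p = 0.0115). In MiaPaca2 it stood at 1.897, 2.258 and 1.773 CPM in DMSO and 2.396, 3.111 and 2.57 in trametinib, which did not overlap but missed the threshold (0.43 ± 0.21, edgeR adjusted p = 0.0763). Its level is low and uncertain, since 54.7% of its exon bases belong also to another gene on the same strand. ABCB10, an inner membrane transporter linked to heme synthesis (ENSG00000135776, chromosome 1, 229516582 to 229558695), stood at 26.14, 26.77 and 28.74 CPM in KP4 DMSO and 23.68, 25.22 and 25.52 in KP4 trametinib (−0.14 ± 0.08, edgeR adjusted p = 0.178). In MiaPaca2 it fell from 46.03, 37.57 and 39.49 CPM to 31.23, 31.4 and 35.65 (−0.32 ± 0.08, edgeR adjusted p = 0.000644), with no overlap between the groups.

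**Figure D4:**
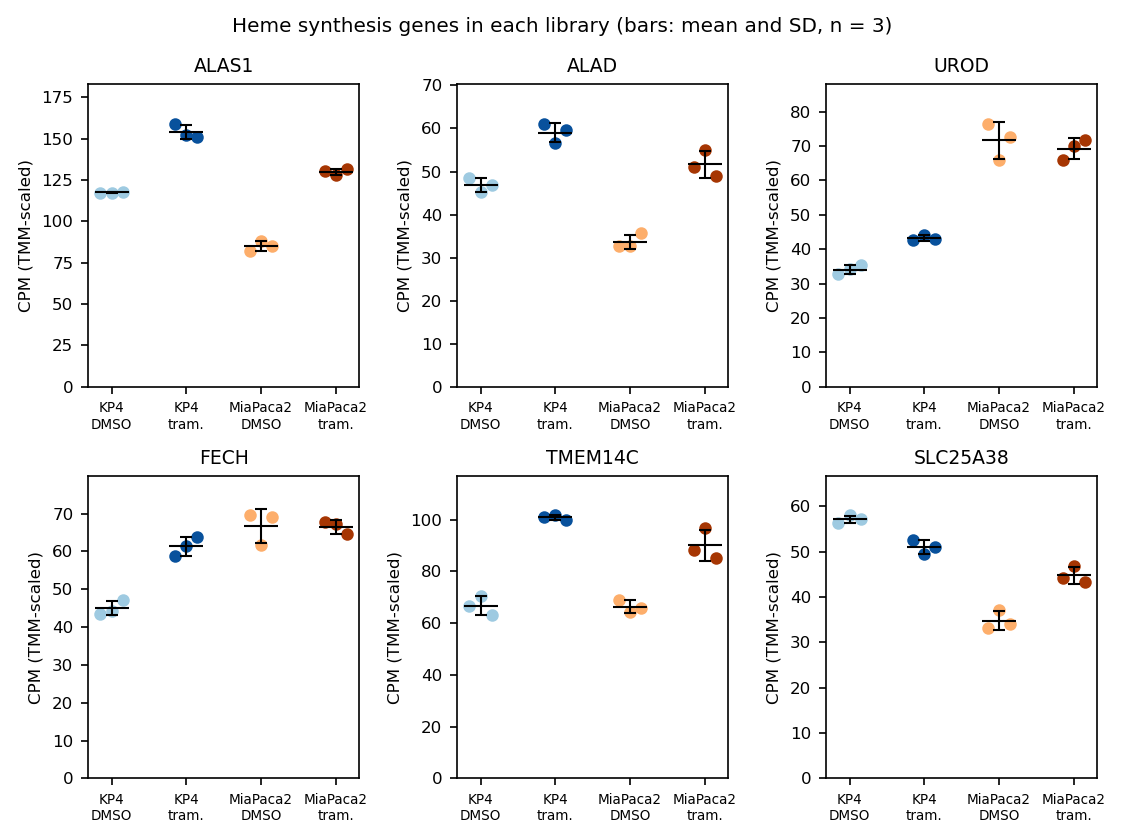
CPM (y axis, from 0) of 6 heme genes in each library of the 4 groups, with the mean and SD (n = 3). ALAS1, ALAD and TMEM14C are higher after trametinib in both lines, UROD and FECH in KP4, and SLC25A38 is higher in MiaPaca2 and lower in KP4.

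The responses of 10 of the 37 genes differed between the lines, 5 with the higher value in KP4 and 5 with the lower, a share of 27% against 35.7% of all genes, 16% higher and 19.7% lower. Those with the higher value in KP4 were HSPA9, LIAS, MMS19, UROD and FECH, and those with the lower value were FDX1, BOLA1, ALAS1, ALAD and SLC25A38. Heme held 5 of the 10, the mitochondrial steps 4 and the cytosolic pathway 1. The mitochondrial count was 2 without MiaPaca2 trametinib replicate 3, and the cytosolic count was 2 without KP4 trametinib replicate 1 or MiaPaca2 DMSO replicate 1 or 2. Without KP4 trametinib replicate 1 the counts were 8 and 3, and with RLE scaling or DESeq2 8 genes were on the higher side.

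In DMSO the lines differed in 21 of the 37 genes, a share of 56.8% against 63.2% of all genes. KP4 was higher in 12, where 32% of all genes were, and lower in 9, where 31.2% were. BOLA1 had the largest such difference, 1.35 ± 0.17, followed by UROD at −1.07 ± 0.06 and SLC25A38 at 0.72 ± 0.06 (edgeR adjusted p = 1.445e-07, 6.187e-14 and 6.823e-11). ABCB10 followed at −0.59, FECH at −0.57 and CIAO2A at 0.55. The 2 enzymes that begin heme synthesis were both higher in KP4, ALAS1 by 0.46 and ALAD by 0.48, while the enzyme that ends it, FECH, was lower there.

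In trametinib 22 genes differed (59.5% against 56.3% of all genes), with KP4 higher in 15 (26.5% of all genes) and lower in 7 (29.8%). FDX1 had the largest difference there, −0.96 ± 0.08 (edgeR adjusted p = 1.029e-10), having differed by −0.02 in DMSO. LIAS, lower in KP4 by 0.48 in DMSO (edgeR adjusted p = 0.000922), differed by 0.13 in trametinib (0.462). HSPA9 differed by 0.05 in DMSO (0.172), which passed without MiaPaca2 DMSO replicate 1 (0.0241), and by 0.30 in trametinib (8.303e-09). These differences hold the same libraries as the responses above and are the same measurements read the other way.

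Other genes of the pathways, from a list of 24 of which 23 were tested, showed 8 rises and 7 falls in KP4, where 23.9% of all genes rose and 24.1% fell. In MiaPaca2 there were 8 rises and 9 falls, where 34.4% and 29.7% of all genes did, so the rises were near the share of all genes.

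Of 4 genes of heme breakdown, HMOX1, BLVRA and BLVRB rose in both lines and HMOX2 fell in both. HMOX1, the inducible heme oxygenase, rose from 117.8 ± 0.6575 to 218.3 ± 8.185 CPM in KP4 (0.89 ± 0.10, edgeR adjusted p = 9.957e-06) and from 23.79 ± 6.715 to 112 ± 2.844 in MiaPaca2 (2.23 ± 0.12, 7.785e-09). Within MiaPaca2 DMSO, replicate 2 was the highest control at 31.48 CPM. BLVRB, a biliverdin reductase, rose by 0.90 in KP4, from 64.02 to 119.3 CPM, and by 0.87 in MiaPaca2. BLVRA, the other biliverdin reductase, rose by 0.43 and 0.75 (edgeR adjusted p = 6.792e-07 and 1.954e-11). HMOX2, the constitutive heme oxygenase, fell by 0.38 in KP4 and 0.32 in MiaPaca2 (edgeR adjusted p = 2.265e-06 and 1.859e-05). FLVCR1, a heme exporter, fell by 0.45 in KP4 and 1.05 in MiaPaca2, while its relative FLVCR2 rose by 1.78 and 1.66 from levels of 0.9237 and 2.577 CPM.

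The mitoferrins import iron for both cofactors. SLC25A37 fell by 0.73 in KP4, from 84.68 to 51.12 CPM (edgeR adjusted p = 9.107e-11), and by 0.14 in MiaPaca2. SLC25A28 fell by 0.19 in KP4 (edgeR adjusted p = 0.0453) and rose by 1.40 in MiaPaca2, from 19.1 ± 1.743 to 50.3 ± 1.811 CPM (5.759e-15). The treated MiaPaca2 libraries stood at 48.29, 50.81 and 51.81 CPM, far above the other groups, and the responses of SLC25A28 differed by −1.59 (1.041e-11). PGRMC1, a heme-binding partner of ferrochelatase, was at 0.03 in KP4 and fell by 0.67 in MiaPaca2, from 127.7 to 80.44 CPM (edgeR adjusted p = 2.799e-12).

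Proteins that receive the cofactors were read from 3 lists. Of 24 tested cytosolic and nuclear cluster proteins 13 fell and 3 rose in KP4 and 18 fell and 3 rose in MiaPaca2. Of all genes 24.1% fell and 23.9% rose in KP4, and 29.7% and 34.4% in MiaPaca2. The list had medians of −0.19 and −0.51 against 0.00 and 0.05 for all genes. XDH, xanthine dehydrogenase, fell from 1.399 to 0.08496 CPM in KP4 and from 8.146 to 1.417 in MiaPaca2. In KP4 it held 35, 41 and 34 counts in DMSO and 3, 4 and 0 in trametinib, so the size of that fall is uncertain. DDX11, a helicase, fell by 0.61 in both lines (edgeR adjusted p = 1.356e-07 in KP4 and 2.571e-07 in MiaPaca2). RTEL1, another, fell by 0.60 in KP4 and 1.30 in MiaPaca2 (edgeR adjusted p = 0.00672 and 5.905e-06). Counts of RTEL1 were low, at 34 to 138 per library. DPYD, which degrades pyrimidines, rose by 0.29 in KP4 and 0.55 in MiaPaca2, and REV3L, a translesion polymerase, by 0.37 and 0.44. Subunits of replicative DNA polymerases were among those that fell, with POLE at −0.50 and −1.08 and POLA1 at −0.50 and −1.21.

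Of 14 mitochondrial cluster proteins 3 rose and 3 fell in KP4, a called share of 42.9% that was no higher than the 48.1% of all genes. In MiaPaca2 3 rose and 8 fell, 78.6% called against 64% of all genes, of which 34.4% rose and 29.7% fell. ETFDH, of fatty acid oxidation, rose by 0.20 in KP4 and 0.37 in MiaPaca2. CDK5RAP1, a transfer RNA modifying enzyme, fell by 0.23 and 0.56, and GLRX2 by 0.37 and 0.21. The complex I subunit NDUFV2 fell by 0.68 in MiaPaca2 (edgeR adjusted p = 0.0152), from 3.22 to 2.013 CPM. In KP4 NDUFV2 was not called (−0.15, edgeR adjusted p = 0.619).

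Of 16 tested heme proteins 6 rose and 3 fell in KP4, 56.2% called against 48.1% of all genes (23.9% higher, 24.1% lower). In MiaPaca2 6 rose and 8 fell, 87.5% called against 64% (34.4% higher, 29.7% lower). PTGS2, cyclooxygenase 2, fell from 18.64 ± 0.5136 to 1.341 ± 0.2208 CPM in KP4 and from 4.793 ± 2.439 to 0.7545 ± 0.1589 in MiaPaca2. IDO1, a tryptophan dioxygenase, rose from 0.1134 ± 0.02153 to 11.33 ± 1.078 CPM in MiaPaca2 and from 0.07667 ± 0.07934 to 0.7197 ± 0.4717 in KP4. CYBRD1, a ferric reductase, rose by 1.14 in KP4 (edgeR adjusted p = 2.41e-12), and CYP51A1, of sterol synthesis, fell by 0.27 (0.0398). CYGB, cytoglobin, rose by 1.54 in MiaPaca2 from 0.2847 CPM, and CYB5B, a mitochondrial cytochrome, fell by 0.86, from 377.1 to 208.3 CPM (edgeR adjusted p = 1.277e-12).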

How the data were processed

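Libraries of 12 samples were made with a kit for messenger RNA, per the labels' protocols. Raw counts, 1 whole number for every gene and library, are what the authors deposited. STAR, DESeq2 and the GRCh38 (hg38) build are named per the submitters' processing notes. Not given in the sources used here are the counter, the annotation, strand use and the handling of multimapped reads, so genes that overlap others or have pseudogenes are uncertain. All 58735 identifiers were found in GENCODE 29.

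Genes were filtered with filterByExpr, scaled with TMM and tested with edgeR 4.0.16 (R 4.3.3, limma 3.58.1), using the quasi-likelihood test with robust shrinkage over all 12 libraries, with 1 mean per group. No covariate entered. Adjustment was by Benjamini-Hochberg across the 16133 genes, with a threshold of 0.05. The SE is the log2 fold change divided by the root of the F statistic. The common dispersion gives a biological coefficient of variation of 5.467%. A count of 0 in a group of 3 libraries allows up to 0.0431 CPM in MiaPaca2 trametinib, at 3 counts, for counting error only. No pair of libraries agreed within sampling noise, so all were kept. The fitting steps were tested on simulated data. TPM was computed from the deposited counts and GENCODE transcript lengths.

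The members, the lists and the rule for named genes were chosen with earlier results of these data known. Values in every library are given for the 8 genes with the largest changes past the test in each line, the 6 with the largest response differences, the 6 with the largest differences between lines in DMSO, and ISCU, NFS1, ALAS1 and FECH. From the other lists the 2 largest rises and falls per line were named, with HMOX1. Some genes that this rule names are not reported here. MMS19 was added to a plot, and SLC25A28, HMOX2, BLVRA, POLE and POLA1 to the text, after their values were seen. The comparison of protein sequences that had been planned was not made. Alternatives were RLE scaling, library size alone, no filter, a strict filter, limma-voom, DESeq2 1.42.0, no robust shrinkage, only the libraries compared, the replicate number as a block, each library left out, and, added after the data were seen, the older quasi-likelihood fit of edgeR.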

Additional observations from a re-analysis of the deposited data

Results flagged for a closer look

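The responses to trametinib of 10 of the 37 tested genes differed between the lines, a share of 27% against 35.7% of all genes. The test was of the difference itself (edgeR's quasi-likelihood test, KP4 minus MiaPaca2, adjusted over all genes, n = 3 libraries per group). FDX1 differed by −0.94 (5.915e-07), from −0.10 in KP4 and 0.84 in MiaPaca2. SLC25A38 differed by −0.53 (1.467e-05), with called changes of opposite sign, −0.16 and 0.37. BOLA1 differed by −0.74 (0.0218), from −0.42 and 0.32, of which the second was not called and ran from 0.15 to 0.51 with a library left out. ALAS1 (−0.22, 0.00609) and ALAD (−0.28, 0.0124) rose in both lines and further in MiaPaca2. UROD (0.39, 0.000729) and FECH (0.45, 8.977e-05) rose in KP4 and were not called in MiaPaca2. HSPA9 (0.25, 6.682e-05), LIAS (0.61, 0.0126) and MMS19 (0.32, 0.000415) fell in both lines and further in MiaPaca2.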

How the results depend on the processing

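Over 22 alternatives, 21 for the difference of the responses, 139 of the 185 values of single genes (37 genes in 5 comparisons) kept their side of the threshold in every one and 46 crossed it in at least one. Of the called values 0 changed sign, while some uncalled values near 0 did, such as HSCB in KP4 (−0.11 to 0.11). The number of genes of the 37 called in KP4 was 23, and 21 to 27 with a library left out. For MiaPaca2 it was 26 (22 to 27), for the difference of the responses 10 (8 to 12), for the lines in DMSO 21 (19 to 24) and in trametinib 22 (18 to 24). Cytosolic genes lower ran from 6 to 9 in KP4 and 7 to 9 in MiaPaca2, and heme genes higher from 6 to 7 and 5 to 5. Without MiaPaca2 DMSO replicate 2, the library that stood apart, the called genes numbered 27 in KP4, 24 in MiaPaca2 and 12 for the difference. With the libraries of KP4 alone 28 were called in that line, 11 of them mitochondrial against 7.

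Same-numbered libraries of a line correlated by −0.015 to 0.021 in their deviations from the group means, so the replicate number pairs nothing beyond the label. With the replicate block the called genes numbered 22 in KP4, 26 in MiaPaca2, 10 for the difference, 21 in DMSO and 21 in trametinib, and all genes called in KP4 numbered 7544 against 7753. The block took away the calls of UROS in KP4 (0.13, adjusted p = 0.0558) and of ISCA2 between lines in trametinib (0.19, 0.0629), and no other. No scaling moved the median of all genes by over 0.1. Genes at low counts, such as BOLA1, ABCB6 and FDX2 and, from the other lists, XDH and RTEL1, are less certain at this depth. ABCB6 and FDX2 also share 54.7% and 70.9% of their exon bases with another gene on the same strand.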
